A study of Homo sapiens with 12 samples.

Results

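NF-kappaB target genes were examined for binding of the EGFR chimera in B2B1 cells. The genes were NFKBIA, SOD2, TNFAIP3, NFKB1, NFKB2, CXCL8, BIRC3 and RELB, 8 of the 19970 protein-coding genes that GENCODE lists on chromosomes 1 to 22 and X. Every summit inside the limits of a gene, extended by 1000 bp on each side, was assigned to it. This gave 25 of the 2186 summits in the 4 lists. A summit is the base at which the piled-up reads of a ChIP-seq peak are highest.

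B2B1 is a single clone of MCF10A-5E, itself a clone of the established human breast epithelial line MCF10A. All cells in every group carried an EGFR chimera, in which an NGFR extracellular domain is joined to the intracellular domain of human EGFR, an FRB domain and a GluGlu tag, and an Erbb2 chimera, in which NGFR is joined to the intracellular domain of rat Erbb2, FKBP domains and an HA tag. Both were delivered in pBabe retroviral vectors on top of the endogenous receptors. Cells were grown for 7 days in overlay culture and received 0.1% ethanol (minus AP, n = 2) or 0.5 µM AP21967 (plus AP, n = 2) for the last 24 h. AP21967 is a small molecule that joins the FRB and FKBP domains and so dimerizes the chimeras. The replicates are called biological in the labels, and chromatin was precipitated with an antibody against the GluGlu tag.

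NF-kappaB is a family of transcription factors that are held in the cytoplasm by IkappaB inhibitors and enter the nucleus after inflammatory or stress signals, where they bind kappaB sites. NFKBIA encodes IkappaB-alpha and TNFAIP3 encodes A20. Both proteins restrain the pathway that induces them. NFKB1, NFKB2 and RELB encode subunits of the factor itself, SOD2 encodes the mitochondrial superoxide dismutase, BIRC3 the anti-apoptotic ubiquitin ligase cIAP2, and CXCL8 the chemokine interleukin-8. ErbB receptors can reach the nucleus and associate with chromatin, and the comparison asked whether such binding at these genes was present without AP or required it.

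The lists differed in length, with 739 summits in minus AP replicate 1 and 56 in replicate 2, and 1094 in plus AP replicate 1 and 297 in replicate 2. Only 9.34% and 9.23% of the summits of the replicate 1 lists lay within 1000 bp of a protein-coding gene, against 76.8% and 79.1% of the replicate 2 lists (minus AP first). The replicate 1 lists thus stood apart from the replicate 2 lists in both conditions, and the counts at the 8 genes are given for each library. The lists hold no read numbers. Depth is therefore unknown, and a gene with no summit had none that was detectable. RNA was not measured in these libraries, so the cell type could not be checked against its markers. Naive IgG was not analysed here, so the background of a control antibody at these genes is not known. Where 4 values are given together below, they stand in library order, the minus AP replicates before the plus AP replicates and replicate 1 before replicate 2.

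The sequences below show where the kappaB consensus stood in the genes with and without summits. The consensus was the 10-base kappaB form GGGRNNYYCC, where R is A or G, Y is C or T and N is any base. It was searched for on both strands with overlapping matches counted, and it is in capitals in the first 6 sequences. Sites that depart from these letters were not counted. The first 4 are the bases just before the transcription start in the RefSeq promoter table (GRCh38.p14, gene strand), cut short where an annotated transcript of the gene begins. They are chr14:35404750-35404999 (NFKBIA, minus strand), chr11:102317234-102317483 (BIRC3, plus strand), chr6:137867009-137867213 (TNFAIP3, plus strand) and chr4:102501109-102501329 (NFKB1, plus strand). NFKBIA and BIRC3 had summits in every library, and TNFAIP3 and NFKB1 in none.
NFKBIA upstream: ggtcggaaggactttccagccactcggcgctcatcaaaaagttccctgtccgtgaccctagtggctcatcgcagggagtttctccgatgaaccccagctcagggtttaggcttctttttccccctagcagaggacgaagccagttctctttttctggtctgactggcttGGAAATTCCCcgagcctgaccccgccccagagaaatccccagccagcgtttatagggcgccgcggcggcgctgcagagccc
BIRC3 upstream: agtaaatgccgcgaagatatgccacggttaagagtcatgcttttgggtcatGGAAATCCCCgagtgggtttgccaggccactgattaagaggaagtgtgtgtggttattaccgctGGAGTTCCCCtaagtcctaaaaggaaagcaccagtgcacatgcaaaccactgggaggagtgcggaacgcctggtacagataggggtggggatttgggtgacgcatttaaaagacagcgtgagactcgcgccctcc
TNFAIP3 upstream: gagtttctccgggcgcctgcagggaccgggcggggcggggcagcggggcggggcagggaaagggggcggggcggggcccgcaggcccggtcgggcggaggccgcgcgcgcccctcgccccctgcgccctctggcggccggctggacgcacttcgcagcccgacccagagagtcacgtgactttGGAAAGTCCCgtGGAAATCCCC
NFKB1 upstream: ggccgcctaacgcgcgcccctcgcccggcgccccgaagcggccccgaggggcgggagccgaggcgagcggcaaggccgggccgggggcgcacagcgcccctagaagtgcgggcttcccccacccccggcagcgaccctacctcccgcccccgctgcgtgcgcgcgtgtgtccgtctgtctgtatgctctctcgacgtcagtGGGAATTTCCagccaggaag
The next pair are consensus matches that lay close to summits inside the transcribed genes. The NFKBIA stretch is the start of the coding sequence in exon 1 (chr14:35404584-35404644, GRCh38, minus strand), in which summits of minus AP replicate 2 and plus AP replicate 1 lay. The SOD2 stretch lies in intron 2 (chr6:159691232-159691261, GRCh38, minus strand), between summits of minus AP replicate 1 and plus AP replicate 2.
NFKBIA exon 1: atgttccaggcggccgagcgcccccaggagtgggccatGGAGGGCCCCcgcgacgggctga
SOD2 intron 2 match: gagagactggGGAATACCCCagttgtgaaa
The last pair show where summits of separate libraries came closest in SOD2 and in BIRC3, and here each capital is a summit base. They are intron 2 of SOD2 (chr6:159690603-159690757, GRCh38, minus strand), with summits of both plus AP replicates, and intron 1 of BIRC3 (chr11:102318662-102318755, GRCh38, plus strand), with a summit of replicate 1 in each condition.
SOD2 intron 2 summits: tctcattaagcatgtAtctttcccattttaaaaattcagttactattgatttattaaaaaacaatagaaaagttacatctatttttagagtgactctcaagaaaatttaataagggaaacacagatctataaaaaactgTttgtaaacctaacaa
BIRC3 intron 1 summits: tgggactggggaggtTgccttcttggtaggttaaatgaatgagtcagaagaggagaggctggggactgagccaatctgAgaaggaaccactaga

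NFKBIA, SOD2 and BIRC3 each had summits in all 4 libraries, and the other 5 genes had none in any library. NFKBIA had 2, 3, 3 and 4 summits in library order. SOD2 had 2, 1, 2 and 3. BIRC3 had 1, 1, 2 and 1. The same 3 genes of the 8 (37.5%) therefore recurred in both replicates without AP and in both replicates with AP. Among all protein-coding genes, 1.31% had a summit in any library, 0.0901% recurred without AP, 0.18% recurred with AP and 0.0801% had a summit in all 4 libraries. The 8 genes were listed with earlier results of these data known, so these shares describe the list and were not tested.

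**Figure D1:**
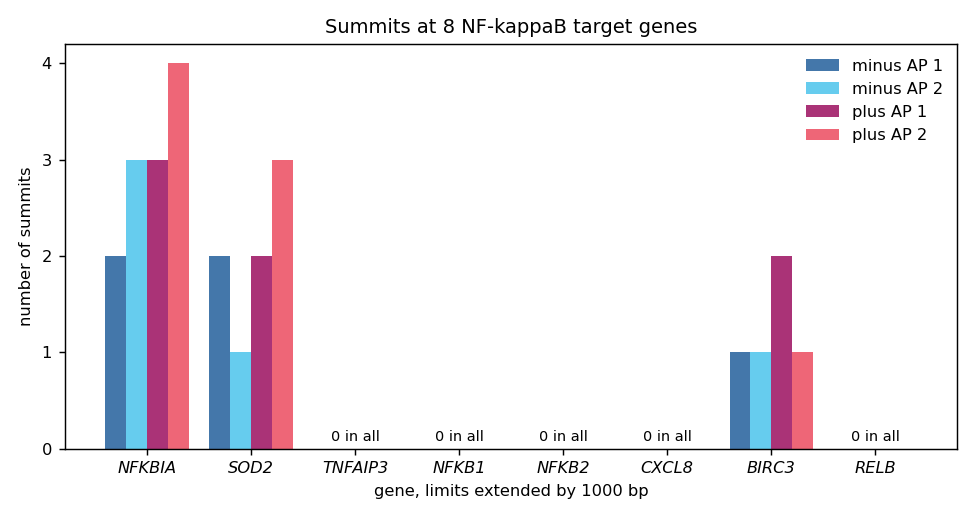
Number of summits (y axis) at each of the 8 genes (x axis, limits extended by 1000 bp) in the 4 libraries (bar colours), 1 value per bar. NFKBIA, SOD2 and BIRC3 have between 1 and 4 summits in every library, and the other 5 genes have 0 in all.

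**Figure D2:**
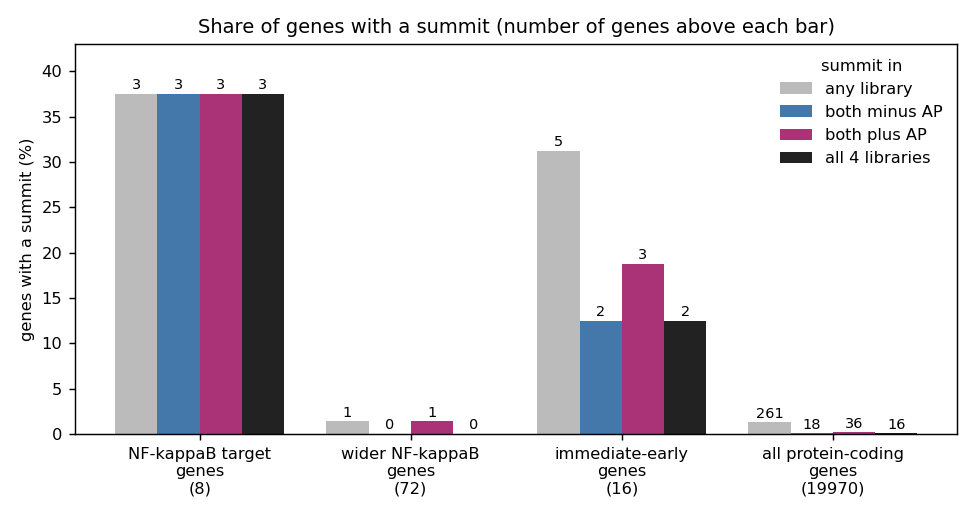
Share of genes in percent (y axis, linear) with a summit in any library, in both minus AP, in both plus AP or in all 4 libraries (bar colours), for 4 lists of genes (x axis, number of genes in brackets). The bars of the NF-kappaB target genes stand at 37.5%, those of all protein-coding genes at 1.31% or below.

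NFKBIA is a compact gene of 6 exons (ENSG00000100906.12, chr14:35401079-35404749, minus strand, GRCh38), and its 12 summits were spread from upstream of the start to past the end of the canonical transcript, over 3839 bp. In minus AP replicate 1, a summit lay in intron 2, 1219 bp from the start (score 2.88, rank 607 of 739), and another 351 bp past the canonical end, inside the limits of the gene (score 5.39, rank 395). The score is the −log10 of the q-value, and rank 1 is the highest score of a list, with tied summits given the better rank. In minus AP replicate 2, summits lay in coding exon 1 at 121 bp (score 6.74, rank 13 of 56), in coding exon 2 at 958 bp (score 3.07, rank 37) and in intron 3 at 1769 bp (score 3.93, rank 28).

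With AP, NFKBIA summits lay from near the start to near the canonical end in each library. Plus AP replicate 1 had summits in coding exon 1 at 129 bp (score 12.7, rank 234 of 1094), in intron 3 at 1810 bp (score 2.10, rank 972) and in the 3′ UTR of exon 6 at 3216 bp (score 8.39, rank 346). Plus AP replicate 2 had summits 252 bp upstream of the start (score 6.30, rank 67 of 297), in intron 2 at 1180 bp (score 7.31, rank 49), in coding exon 5 at 2155 bp (score 4.38, rank 129) and 166 bp past the canonical end (score 6.30, rank 67). Upstream binding was thus listed in a single library, and its summit lay just outside the NFKBIA upstream sequence printed above. Coding exon 1 and intron 3 each held a summit in minus AP replicate 2 and plus AP replicate 1. Intron 2 and the bases past the canonical end each held a summit in the other two libraries. No segment of NFKBIA between neighbouring exon borders held summits in all 4 libraries.

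Positions along NFKBIA were compared between libraries. The closest summits of the replicates were 261 bp apart without AP and 186 bp apart with AP, and those of the conditions were 371 bp apart in replicate 1 and 222 bp apart in replicate 2. All 3 summits of plus AP replicate 1 lay within 500 bp of a summit of plus AP replicate 2, and so did all 3 summits of minus AP replicate 2. The gene spans only 3671 bp and plus AP replicate 2 had 4 summits along it, so most of its bases lie within 500 bp of one. Whether the summits were nearer than this spacing gives was not tested. Neither the pairs of replicates nor the pairs of conditions were the closer throughout. The exon 1 summits were only 8 bp apart, although they came from different conditions and different replicates. They lay 22 bp (minus AP replicate 2) and 14 bp (plus AP replicate 1) from the consensus match of the exon 1 sequence, which follows the start codon printed there.

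SOD2 is annotated over 93461 bp (ENSG00000291237.1, chr6:159669069-159762529, minus strand). Its 8 summits were confined to a stretch of 3733 bp, from 179 to 3912 bp downstream of the canonical start at position 159693241. Minus AP replicate 1 had summits in intron 2 at 869 bp (score 3.68, rank 535 of 739) and 1893 bp (score 2.88, rank 607). Minus AP replicate 2 had a single summit in intron 2 at 1464 bp (score 5.77, rank 18 of 56). Plus AP replicate 1 had summits in intron 2 at 2623 bp (score 2.72, rank 881 of 1094) and 3912 bp (score 1.40, rank 1071). Summits of the minus AP libraries thus lay nearer the start of SOD2 than both summits of plus AP replicate 1.

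Plus AP replicate 2 had a SOD2 summit in intron 1 at 179 bp (score 5.32, rank 91 of 297) and others in intron 2 at 2080 bp (score 4.38, rank 129) and 2499 bp (score 1.90, rank 281). The plus AP distances, from 179 to 3912 bp, enclosed those without AP, from 869 to 1893 bp, so the positions of the conditions overlapped. The closest summits of the replicates were 429 bp apart without AP and 124 bp apart with AP, against 730 bp and 616 bp between conditions in replicates 1 and 2. Pairs differing in both condition and replicate number are not in this comparison. Of those, the summits at 1893 bp (minus AP replicate 1) and 2080 bp (plus AP replicate 2) lay nearer than the closest replicates without AP. Intron 2 of the canonical transcript is partly exon in another transcript of the gene: 4 of the 8 summits lay in a 3′ UTR of that transcript, which spans 159690919 to 159692466. ChIP-seq reads do not tell these transcripts apart.

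Intron 2 of SOD2 is known as the site of a cytokine-responsive enhancer with a kappaB site. A consensus match at chr6:159691242-159691251, 1990 bp from the start, is the capital stretch of the SOD2 match printed above. It lay 97 bp from a summit of minus AP replicate 1 and 81 bp from a summit of plus AP replicate 2, on opposite sides. The other SOD2 summits lay between 236 bp and 1913 bp from their nearest match. The 250 bases before the start of SOD2 held no match of the consensus.

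BIRC3 (ENSG00000023445.17, chr11:102317484-102339403, plus strand) spans 21920 bp with 9 exons, and all 5 of its summits lay in intron 1, within 972 bp of each other. Minus AP replicate 1 had a summit 1193 bp from the start (score 3.68, rank 535 of 739), and minus AP replicate 2 had a summit at 284 bp (score 2.28, rank 47 of 56). Plus AP replicate 1 had summits at 566 bp (score 6.17, rank 480 of 1094) and 1256 bp (score 5.45, rank 539). Plus AP replicate 2 had a summit at 1082 bp with a score of 1.90 (rank 281 of 297). BIRC3 thus recurred on low scores in both replicate 2 lists, and it no longer recurred with AP when only scores of 2 or more were kept.

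Among replicates of a condition and same-numbered libraries, summits in BIRC3 were closest between conditions in replicate 1, at 63 bp (the intron 1 sequence above). The replicates with AP followed at 174 bp. Pairs differing in both condition and replicate number are not in this comparison. Of those, the summits at 1193 bp (minus AP replicate 1) and 1082 bp (plus AP replicate 2) lay nearer than 174 bp. The replicates without AP were 909 bp apart and the conditions in replicate 2 were 798 bp apart, because the summit of minus AP replicate 2 lay nearest the start. A long non-coding RNA gene on the opposite strand (ENSG00000288528.1, chr11:102316173-102328586) covers the same intron, and summits carry no strand, so the signal cannot be assigned to either gene. Both consensus matches upstream of BIRC3 began 199 and 135 bases before the start. No BIRC3 summit lay nearer than 410 bp to a match.

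**Figure D3:**
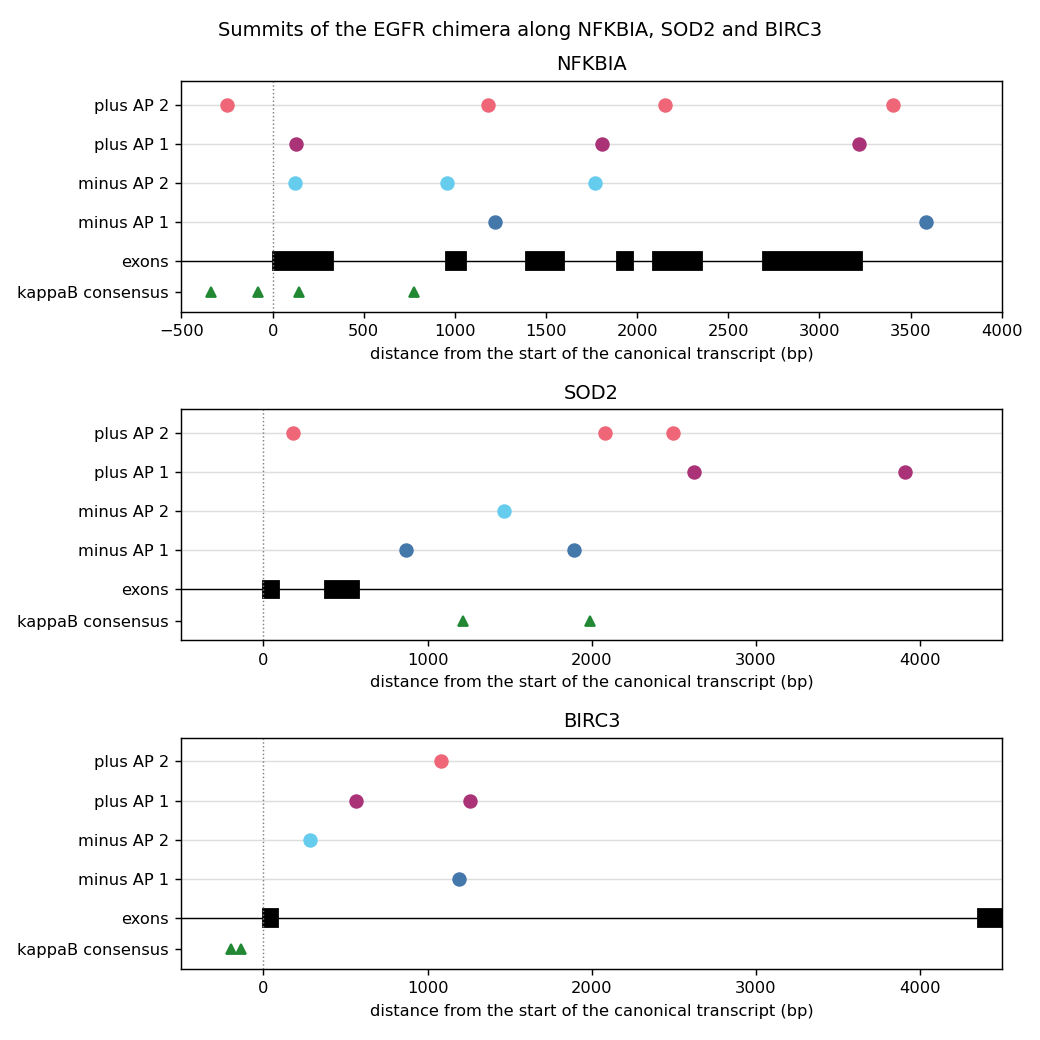
Summits (points) by distance in bp from the canonical start (x axis) for the 4 libraries (rows) at NFKBIA, SOD2 and BIRC3, with canonical exons (black boxes) and kappaB consensus matches (green triangles). The axes for SOD2 and BIRC3 end before the ends of the genes, since no summit lay beyond 3912 bp and 1256 bp. Summits run the whole length of NFKBIA, lie mainly in intron 2 of SOD2 and lie in intron 1 of BIRC3.

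SOD2 and BIRC3 both have canonical transcripts longer than 10000 bp, and all 13 of their summits lay within 4000 bp of the start, a limit chosen after the positions had been seen. Among all summits inside canonical transcripts of that length, 50% (7 of 14), 70% (7 of 10), 43.8% (14 of 32) and 71.4% (55 of 77) lay within this distance in library order. These totals include SOD2 and BIRC3. Of the 25 summits at the 8 genes, 17 lay in introns, 4 in coding exons, 1 in a 3′ UTR, 2 past a canonical end and 1 upstream of a start.

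The 5 genes without summits were far from any. Of the inhibitors, TNFAIP3 (ENSG00000118503.18, chr6:137867214-137883314) had its closest summit 19.4, 21.8, 19.4 and 5.05 Mb away in library order, at TMEM242 in both replicate 1 lists and at RPS12 in plus AP replicate 2. The summit closest to TNFAIP3 in minus AP replicate 2 was the SOD2 summit itself, as both genes are on chromosome 6.

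Of the subunits, NFKB1 (ENSG00000109320.14, chr4:102501330-102617302) had its closest summit 51.6, 29.1 and 15.7 Mb away in 3 libraries in that order, and minus AP replicate 2 had no summit on chromosome 4. The nearest of these lay at PRSS12, and the others at no protein-coding gene. NFKB2 (ENSG00000077150.21, chr10:102394110-102402524) had its closest summit 30.1 Mb away in both minus AP libraries and in plus AP replicate 1, at the stress-response gene DDIT4. RELB (ENSG00000104856.15, chr19:45001461-45038192) had its closest summit at 5.59 Mb (ZFP36), 32.2 Mb (JUNB and its neighbour HOOK2), 1.26 Mb (HIF3A) and 0.546 Mb (OPA3) in library order. No subunit gene had a summit nearer than 0.546 Mb in any list.

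CXCL8 (ENSG00000169429.12, chr4:73740519-73743716) had its closest summit 22.8, 24.0 and 8.69 Mb away in the same 3 libraries as NFKB1, the last at HNRNPDL and ENOPH1 and the others at no protein-coding gene. It shares chromosome 4 with NFKB1, and thus had none to compare with in minus AP replicate 2.

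Promoters with a kappaB consensus occurred among the genes with summits and among those without. The RefSeq table held 7 of the 8 genes. RELB has no entry in it and is left out of these counts. The consensus was found in the 250 bases before the start in 2 of the 3 genes with summits (NFKBIA and BIRC3) and in 3 of the 4 without (TNFAIP3, NFKB1 and NFKB2), against 9.95% of 34943 RefSeq promoters. NFKBIA had a match 81 bases before the start, TNFAIP3 had matches at 67 and 55 bases, and NFKB1 had a match at 49 bases. NFKB2 had matches at 176 and 21 bases, of which the first read as the consensus on both strands, and CXCL8 had none. Since sites that depart from the consensus letters were not counted, this does not show that the CXCL8 promoter lacks a kappaB site.

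Sequence around the summits was compared with that around other summits near genes. A window of 250 bp on each side held the consensus at 7 of the 25 summits: 1 of 5 and 3 of 5 without AP, and 1 of 7 and 2 of 8 with AP. The shares among all summits within 1000 bp of protein-coding genes were 14.5%, 30.2%, 13.9% and 17.0%, and among windows on the canonical starts of protein-coding genes 22.1%. None of the BIRC3 windows held a match. Median GC content at the 8 genes was 46.3%, 54.7%, 45.5% and 50.6%, against 53.9%, 54.9%, 51.5% and 56.1% around all such summits. All 75-bp sequences of the 25 windows occurred once in the reference, leaving out alternate haplotypes, so none of these windows held repeated sequence by this measure.

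The number of summits at the 8 genes was compared between conditions. There were 5 and 5 summits without AP and 7 and 8 with AP, or 5 ± 0 and 7.5 ± 0.707 (mean ± SD, n = 2). The groups did not overlap. The difference of 2.5 summits had p = 0.333 in a two-sided exact permutation test, the smallest p that 2 against 2 libraries can give. Relative to the length of the list the order changed, with 0.677% and 8.93% of all summits at these genes without AP and 0.640% and 2.69% with AP. As a share of the summits near protein-coding genes, the values were 7.25% and 11.6% without AP and 6.93% and 3.40% with AP. The list was longer with AP at each replicate number, although minus AP replicate 1 (739 summits) was longer than plus AP replicate 2 (297). A higher number of summits with AP therefore cannot be told apart from differences in list length. The number of the 8 genes with a summit was 3 in every library (exact permutation p = 1).

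Ranks within the lists were compared for the best summit of each gene. NFKBIA ranked 395 of 739, 13 of 56, 234 of 1094 and 49 of 297 in library order. SOD2 ranked 535, 18, 881 and 91 in the same lists, and BIRC3 ranked 535, 47, 480 and 281. NFKBIA held the best rank of the 3 genes in every library. It also had the most summits in total (12, against 8 for SOD2 and 5 for BIRC3). Whether its rank follows from taking the best of more summits was not tested. The median rank over the 3 genes, in percent of the list, was 72.4 and 32.1 without AP and 43.9 and 30.6 with AP, where lower is a higher score. The means were 52.3 ± 28.5 without AP and 37.3 ± 9.36 with AP (SD, n = 2), and the groups overlapped (p = 0.667, two-sided exact permutation test). Ranked only among summits near protein-coding genes, the medians were 65.2 and 27.9 without AP and 38.6 and 30.6 with AP. The difference was then -11.9 percentage points, and the order of the conditions in replicate 2 changed.

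**Figure D4:**
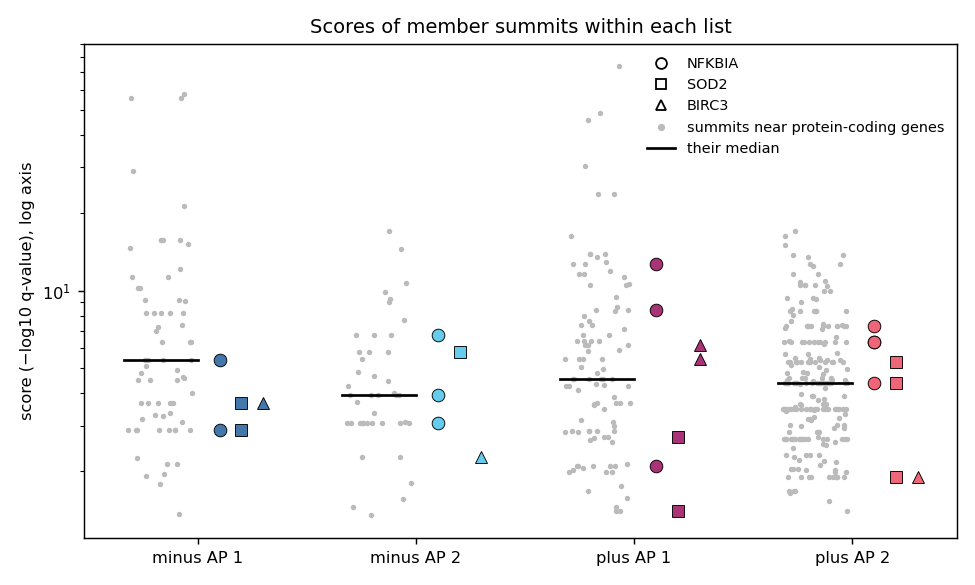
Score of each summit (−log10 q-value, log axis) at NFKBIA (circles), SOD2 (squares) and BIRC3 (triangles) in each library (x axis), beside all summits within 1000 bp of a protein-coding gene (grey points) and their median (black line). Scores depend on depth and can be compared only within a library. NFKBIA has the highest of the marked scores in every library, and BIRC3 the lowest in minus AP replicate 2.

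Across the genome, 16 protein-coding genes had a summit in all 4 libraries, with 4 to 23 summits in total and a median of 9.5. A summit inside the limits of neighbouring genes counts for each, as at JUNB and its neighbour HOOK2, so the 16 are not all separate loci. NFKBIA had 12, above this median. SOD2 had 8, the same as DUSP1, and BIRC3 had 5. A further 20 genes recurred with AP but not without, and 2 recurred without AP but not with, and none of the 8 NF-kappaB target genes was among these.

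Other genes of the NF-kappaB pathway held summits at a share near that of all protein-coding genes. Their list is too short for its share to be ordered against that of all genes. A wider list of 72 genes held 2 further subunits, 9 inhibitors, 10 kinases, 9 adaptors, 9 receptors, 6 ligands and 27 other targets, and summits were found at a single gene, the ligand IL1A (1.39%, against 1.31% of all protein-coding genes). IL1A, which encodes the cytokine interleukin-1 alpha (chr2:112773925-112784493, minus strand), had no summit in either minus AP library, then 1 with AP in replicate 1 and 2 in replicate 2. With AP, 1.39% of the wider list thus recurred, against 0.18% of all protein-coding genes. Without AP the shares were 0% and 0.0901%. The difference of 1 gene between conditions had p = 0.333 (two-sided exact permutation test, n = 2), again the smallest possible.

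Both plus AP libraries listed IL1A, but not at the same place. The summit of plus AP replicate 1 lay in the 3′ UTR in exon 7, 9756 bp from the start (score 3.67, rank 739 of 1094). Those of plus AP replicate 2 lay 75 bp upstream of the start (score 2.72, rank 236 of 297) and in intron 1 at 509 bp (score 6.30, rank 67). The closest summits of the replicates were 9247 bp apart, farther than any such distance in NFKBIA, SOD2 or BIRC3.

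Immediate-early genes, which growth factor signals induce within minutes, were set beside these as another list of 16 inducible genes. Summits in any library were found at 5 of them, or 31.25%, against 1.31% of all protein-coding genes. These were JUNB, JUND, DUSP1, ZFP36 and MYC, named after their values were seen. JUNB and DUSP1 recurred without AP and in all 4 libraries (12.5%, against 0.0901% and 0.0801% of all protein-coding genes). JUNB, DUSP1 and MYC recurred with AP (18.75%, against 0.18%). Both lists thus held genes that recurred in either condition, and the lists are too short for their shares to be ordered.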

How the data were processed

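The study immunoprecipitated the EGFR chimera by its GluGlu tag and sequenced paired 75-bp reads from 12 libraries, of which 8 (input chromatin and naive IgG) were not analysed here. The authors aligned reads to GRCh38 with Bowtie2 2.2.9, kept uniquely mapped reads without duplicates and called peaks in each library against input with MACS2 2.2.7.1, both at default settings (versions from the submitters' processing notes and the methods). Input as the control of peak calling is taken from the methods. Elsewhere the paper describes loci as enriched over naive IgG, and the lists do not show which control the scores refer to. Each deposited line holds a summit's position and, as its score, the −log10 of the q-value from the authors' peak calling. Scores depend on depth, which is unknown, and were ranked only within a list. Libraries were assigned to conditions and replicates from their titles, and the files through the CON (control) and DIM (dimerizer) of their peak names.

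Summits were assigned to genes of GENCODE 44 extended by 1000 bp, with Python 3.11.15, numpy 2.4.6, pandas 2.3.3 and numba 0.67.0 (figures: matplotlib 3.10.9). Positions were measured from the Ensembl canonical transcript. A gene recurred when both replicates of a condition had a summit in its limits. Conditions were compared by two-sided exact permutation tests over the 4 libraries, which cannot give p below 0.333. Counting was tested on simulated summits. All 8 genes are named. Of the wider list, which was written from textbook knowledge, genes with summits are named, and other genes where they overlap or hold the closest summit. The genes and lists were chosen with earlier results of these data known. Alternatives changed gene limits, minimum score, list length, merging of summits within 500 bp, distance between replicates, scaling, replicates used and pairing. A RefSeq promoter is the 250 bases before a start. The summit closest to NFKB2 in plus AP replicate 2 is not reported here.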

Additional observations from a re-analysis of the deposited data

How the results depend on the processing

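Of 41 alternatives, 36 were classed as the same, 4 as moved and 1 as reversed. No test could pass 0.05 in any of them, so this classing does not show that the values held. With scores of 2 or more, the difference in summits at the 8 genes fell from 2.5 to 1 (5 and 5 without AP, 6 and 6 with AP). The difference in median rank, -15.0 percentage points, was -1.50 with replicate 2 alone and -28.5 with replicate 1 alone. As a percent of the list in place of a number, the difference in summits at the 8 genes (with AP minus without) reversed from 2.5 to -3.14 percentage points (exact permutation p = 0.667), because the lists differ in length. With a single replicate left out the difference ran from 2 (replicate 1 alone) to 3 (replicate 2 alone). When each list was reduced to its 56 highest-scoring summits, 0 genes recurred without AP and 0 with AP: NFKBIA, SOD2 and BIRC3 then had summits in minus AP replicate 2, which was not shortened, and a single gene in plus AP replicate 2. The difference in the number of the 8 genes with a summit, 0 as reported, was -1 in these shortened lists. With scores of 2 or more it was -0.5, and BIRC3 no longer recurred with AP, which left 2 genes, NFKBIA and SOD2. Labels do not say that replicate numbers pair the cultures. Deviations from the condition means over 261 genes correlated between same-numbered libraries (Pearson r = 0.744), which 2 pairs cannot settle, and with a replicate block the difference of 2.5 summits had p = 0.5, the smallest it allows, and no call changed. Unknown depth limits every absence of a summit, and no test here could pass 0.05.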
